A study of Mus musculus with 6 samples.

Results

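The nuclear genes of mitochondrial complex I and of its assembly factors were followed across 6 single-colour arrays. Members were taken as every gene whose symbol in the platform annotation begins with Nduf, and these were 46 of the 19505 genes with a symbol. They comprised 38 genes of the Ndufa, Ndufb, Ndufc, Ndufs and Ndufv series, called subunits here, and 8 Ndufaf genes, which encode assembly factors. Each was measured by 1 probe set. Ndufb1, which also belongs to the complex, is not analysed here. RNA had been labelled as colon crypt RNA of C57BL/6J mice. The 3 arrays titled PBS came from control mice. The 3 arrays titled MBELN came from mice that received nanoparticles resembling exosomes, isolated from mulberry bark, by mouth once a day over 7 days. No genetic change is named for either group. Nothing in the labels ties each array to a mouse of its own. The p-values below thus reflect how far these samples differ from each other, which can be technical.

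Complex I is the entry point of the mitochondrial respiratory chain. It oxidises NADH, passes the electrons along a row of iron-sulphur clusters to ubiquinone and pumps protons across the inner membrane. Its parts are built separately: the N module binds NADH, the Q module reduces ubiquinone, and the proximal and distal parts of the membrane arm pump protons. Assembly factors join these parts and leave before the enzyme works. Heart muscle is rich in the enzyme, while crypt epithelium also depends on it as cells mature.

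The deposited values, read as log2, had array medians between 4.38 and 4.55. Probe sets of olfactory and vomeronasal receptors (1414 of them) served as a dim reference. Their 95th percentile, taken per array and called the dim level, lay between 3.99 and 4.44. Markers went against the tissue label in all 3 MBELN arrays, so these are named by their titles only. The median of 15 gut epithelial genes lay between 17.79 and 17.91 in the PBS arrays and read 6.90, 3.82 and 5.59 in MBELN 1, 2 and 3. All 15 of them fell in the limma fit. Epcam, an adhesion protein of epithelia, read 19.40, 18.97 and 19.41 in the PBS arrays and 7.12, 2.47 and 7.54 in MBELN 1, 2 and 3. By contrast, the median of 15 heart muscle genes was 18.63 in MBELN 1 and 18.92 in MBELN 3, with all 15 above the dim level there. In the PBS arrays that median was between 3.66 and 4.0 and in MBELN 2 it was 3.68, with 4 to 8 of the 15 above the dim level. The cardiac myosin gene Myh6 read 18.82 in MBELN 1 and 19.03 in MBELN 3, and below the dim level in the other arrays. MBELN 2 stood apart from both. There the 13 neuronal genes had a median of 15.56, while the remaining arrays had 3.13 to 3.75. For 9 of the 10 glial genes listed, the median in MBELN 2 was 9.17. PBS 2 differed from PBS 1 and PBS 3, with a median of 3.63 over 8 Paneth cell genes, which read 19.06 and 19.61 in those arrays. Its median over 8 colon epithelial genes was 17.14, against 8.24 and 7.89 in PBS 1 and PBS 3. Conversely, 12 enterocyte genes of the small intestine had a median of 18.02 in both PBS 1 and PBS 3 and of 5.38 in PBS 2. Aqp8 and Hoxb13, 2 of the 8 colon epithelial genes, were below the dim level in PBS 1 and PBS 3. Of those 8 genes, 5 were above it in each of these arrays, among them Ceacam1 (19.52 and 19.49) and Car4 (14.79 and 14.66). Fabp6, a bile acid binding protein of the ileum, read 19.85 in both. The small-intestine genes, Aqp8 and Hoxb13 thus went against the colon label in PBS 1 and PBS 3, while the remaining colon genes were mixed. Car1 fell below the dim level in PBS 1 (4.09), and Retnlb did so in PBS 3 (3.76). Slc26a3 (10.48 and 11.26), Mptx1 (8.38 and 10.49) and Car4 exceeded the dim level in both arrays. All of them stayed under their PBS 2 values of 17.55, 16.73 and 19.08. Ceacam1 was about equal to its PBS 2 value of 19.50, and Retnlb was above its own (2.30). Where the test of a single member is given, it is therefore given with MBELN 2 and without it, and some members are described by their array values only. The part of these markers in the results was not tested. In bulk RNA of this kind, a different number of cells of a type and a different amount of RNA per cell cannot be told apart.

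Promoter sequence is shown for 4 members whose transcripts lay at different distances between the groups and whose promoters share one sequence feature. RefSeq sequence of the 250 bases before the transcription start (assembly GRCm38.p6) was held for 41 of the 46 members, in 43 windows. The search covered both strands for the core GCATGCG, which is bound by nuclear respiratory factor 1, a regulator of respiratory chain genes. The core lay in 4 of 43 windows, or 9.3%, against 3.02% of the 32851 windows of all genes. Capitals mark the core together with its match on the other strand, which overlaps it where both are present.
Ndufa8: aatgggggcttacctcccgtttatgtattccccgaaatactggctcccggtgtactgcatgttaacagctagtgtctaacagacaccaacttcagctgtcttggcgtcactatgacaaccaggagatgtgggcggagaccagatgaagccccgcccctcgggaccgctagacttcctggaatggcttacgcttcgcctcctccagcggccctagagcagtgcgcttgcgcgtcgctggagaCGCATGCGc
Ndufa11: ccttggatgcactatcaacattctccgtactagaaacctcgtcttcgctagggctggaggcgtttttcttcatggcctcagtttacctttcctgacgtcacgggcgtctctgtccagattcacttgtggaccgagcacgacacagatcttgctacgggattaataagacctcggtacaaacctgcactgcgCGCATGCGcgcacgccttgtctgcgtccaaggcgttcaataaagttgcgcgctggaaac
Ndufaf4: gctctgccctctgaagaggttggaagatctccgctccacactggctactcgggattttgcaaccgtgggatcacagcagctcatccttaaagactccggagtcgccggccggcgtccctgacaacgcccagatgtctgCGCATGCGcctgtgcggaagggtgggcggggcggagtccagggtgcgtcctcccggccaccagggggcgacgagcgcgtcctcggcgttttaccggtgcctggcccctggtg
Ndufa6: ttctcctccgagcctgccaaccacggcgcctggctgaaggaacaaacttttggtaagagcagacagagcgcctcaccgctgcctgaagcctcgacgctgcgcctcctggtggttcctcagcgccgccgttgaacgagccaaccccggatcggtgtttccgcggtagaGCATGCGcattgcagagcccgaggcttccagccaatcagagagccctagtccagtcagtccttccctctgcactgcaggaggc
These windows are chr2:36049339-36049588 on the minus strand for Ndufa8, chr17:56717512-56717761 on the plus strand for Ndufa11, chr4:24897833-24898082 on the plus strand for Ndufaf4 and chr15:82354292-82354541 on the minus strand for Ndufa6. Counted back from the start site, the marked stretch begins at -9 in Ndufa8, -59 in Ndufa11, -112 in Ndufaf4 and -83 in Ndufa6. Other motifs were searched in the same way. The ETS core CCGGAAG lay in 5 member windows (11.6%, against 6.91% of all windows), and the AAGGTCA element of oestrogen-related receptors lay in 3 (6.98%, against 4.08%), those of Ndufb2, Ndufb4 and Ndufs5. The AAGATGG core of the factor YY1 lay in 0 of 43 member windows and in 4.49% of all windows. A match is only a description of the letters in this window. No test was made of it.

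Complex I transcripts were far more abundant in MBELN 1 and MBELN 3 than in any PBS array, while MBELN 2 lay near or below the PBS arrays. Over the 38 subunits, the median level was 10.94, 11.11 and 11.40 in PBS 1, 2 and 3, against 16.54, 10.76 and 16.94 in MBELN 1, 2 and 3. In all 46 members, MBELN 1 and MBELN 3 both exceeded every PBS array, which was true of 25.1% of all transcript probe sets. With all 6 arrays, limma nevertheless called 0 of 38 subunits in either direction at an adjusted p under 0.05. Over all probe sets it called 1.42% as higher and 3.76% as lower in MBELN. Before adjustment, 8 subunits had a p under 0.05 in that fit, as did 17.8% of all probe sets. Over all 38 subunits the limma adjusted p ran from 0.189 for Ndufs5 to 0.982 for Ndufa6. The median difference between group means, MBELN minus PBS, was 3.46 over the subunits and 0.09 over all genes.

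Leaving out MBELN 2 changed the count. Limma then called 37 of 38 subunits higher and 0 lower, where 9.51% of all probe sets were called higher and 7.32% lower. The exception was Ndufa6. The median difference over the subunits became 5.44, a 43.5-fold difference, against 0.06 over all genes. Among the assembly factors, 7 of 8 were called higher without MBELN 2, all but Ndufaf6, with a median difference of 1.97 or 3.93-fold. With limma's array weights, which keep all 6 arrays, the same 44 members were called, against 12.9% of all probe sets higher and 13% lower. The median subunit difference was then 5.17. The weights were estimated from these same values, so this fit is not separate support for the calls. These calls rest on 2 MBELN arrays that carried heart muscle transcripts. Hybridisation control probe sets split the arrays by brightness. The higher level held PBS 2, MBELN 1 and MBELN 3, and the lower one PBS 1, PBS 3 and MBELN 2. Within the higher level the median subunit difference was 5.21, with 37 called higher, against 9.59% of all probe sets. Within the lower level it was -0.60, with 0 called higher and 6 called lower, against 16.8% and 15.8% of all probe sets. Each of these fits has 1 array in a group, assumed to vary like the others.

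**Figure D1:**
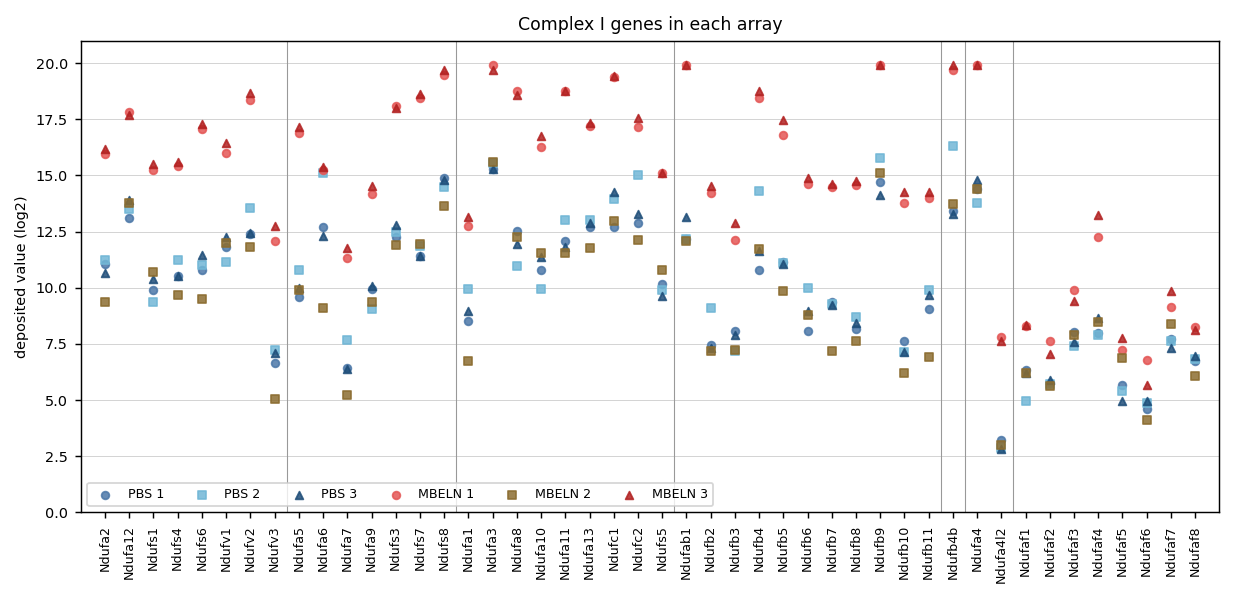
Deposited value (log2) of each of the 46 genes in each array, with PBS arrays in blue, MBELN 1 and MBELN 3 in red and MBELN 2 in brown. Vertical lines separate, from left to right, N module, Q module, proximal and distal membrane arm, the copy Ndufb4b, the Ndufa4 family and assembly factors. Both red points of every gene lie above its blue points, and MBELN 2 is below all PBS arrays in 20 of 38 subunits.

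The N module takes electrons from NADH. Over its 8 genes the median was 10.94, 11.18 and 11.06 in PBS 1, 2 and 3, against 15.99, 10.19 and 16.30 in MBELN 1, 2 and 3. Ndufv1, whose protein binds NADH and the flavin, read 11.81, 11.13 and 12.24 in the PBS arrays and 16.0, 12.01 and 16.43 in MBELN 1, 2 and 3. Its difference was 3.09 ± 1.24 (SE; limma adjusted p = 0.278) and, without MBELN 2, 4.49 ± 0.42 (adjusted p = 0.00196). MBELN 2 fell inside the PBS range for Ndufv1, so the groups overlap. Ndufv2, an iron-sulphur subunit next to Ndufv1, read 12.41, 13.54 and 12.45 in PBS and 18.34, 11.81 and 18.67 in MBELN 1, 2 and 3. MBELN 2 was the lowest of all 6 arrays for it. Ndufv2 rose without MBELN 2 by 5.71 ± 0.45 (limma adjusted p = 0.00112), against 3.47 ± 1.92 with it (adjusted p = 0.428). For Ndufs1, the large subunit that carries several iron-sulphur clusters, the groups did not overlap. It read 9.92, 9.35 and 10.38 in PBS and 15.25, 10.72 and 15.49 in MBELN 1, 2 and 3. MBELN 2 exceeded PBS 3 only slightly, and the limma adjusted p was 0.208 with all arrays (difference 3.94 ± 1.35) and 0.000855 without MBELN 2 (5.49 ± 0.39).

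The accessory genes of the N module also had both MBELN 1 and MBELN 3 above every PBS array. Ndufa12, the accessory subunit that replaces the assembly factor Ndufaf2 late in assembly, had one of the 3 smallest measured ranges among the subunits. It read 13.10, 13.53 and 13.91 in PBS and 17.84, 13.78 and 17.70 in MBELN 1, 2 and 3. The difference for Ndufa12 was 4.25 ± 0.34 without MBELN 2 (limma adjusted p = 0.00121) and 2.92 ± 1.16 with it (adjusted p = 0.275). Ndufs4, an accessory subunit whose loss causes Leigh syndrome, read 10.53, 11.24 and 10.53 in PBS and 15.42, 9.66 and 15.59 in MBELN 1, 2 and 3. Ndufs6, which binds zinc, read 10.81, 11.0 and 11.45 in PBS and 17.07, 9.52 and 17.29 in MBELN 1, 2 and 3. In Ndufs4, Ndufs6, Ndufv2, Ndufv3 and Ndufa2 the array MBELN 2 was below every PBS array. Without MBELN 2 all 8 genes of the module were among those that limma called higher, against 9.51% of all probe sets.

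The Q module carries electrons to ubiquinone. The median over 7 of its genes was 11.42, 11.88 and 11.43 in the PBS arrays and 16.90, 9.91 and 17.14 in MBELN 1, 2 and 3. Ndufs7, which holds the last iron-sulphur cluster before ubiquinone, read 11.42, 11.88 and 11.43 in PBS and 18.47, 11.93 and 18.65 in MBELN 1, 2 and 3. The groups of Ndufs7 did not overlap, although MBELN 2 lay just above PBS 2. Its difference was 4.77 ± 1.88 with all arrays (limma adjusted p = 0.270) and 6.98 ± 0.30 without MBELN 2 (adjusted p = 0.000209). Ndufs8, another carrier of iron-sulphur clusters, read 14.89, 14.51 and 14.82 in PBS and 19.46, 13.66 and 19.68 in MBELN 1, 2 and 3. Ndufs3, part of the core that links the module to the membrane arm, read 12.28, 12.49 and 12.81 in PBS and 18.08, 11.91 and 18.02 in MBELN 1, 2 and 3. For both, MBELN 2 was the lowest array. Limma gave Ndufs8 a difference of 4.83 ± 0.28 (adjusted p = 0.000495) and Ndufs3 one of 5.53 ± 0.30 (adjusted p = 0.000376) without MBELN 2. With all arrays these were 2.86 ± 1.68 (limma adjusted p = 0.455) and 3.48 ± 1.74 (adjusted p = 0.379). Ndufa5, an accessory subunit of this module, read 9.57, 10.80 and 9.97 in PBS and 16.90, 9.91 and 17.14 in MBELN 1, 2 and 3. Its difference without MBELN 2 was 6.91 ± 0.44 (limma adjusted p = 0.000611), and with it 4.54 ± 2.03 (adjusted p = 0.325).

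Ndufa6, singled out here after its values were seen, was the one subunit that limma did not call without MBELN 2. It is a small accessory protein that binds the acyl carrier subunit Ndufab1. Ndufa6 read 12.71, 15.13 and 12.30 in PBS 1, 2 and 3, against 15.25, 9.09 and 15.38 in MBELN 1, 2 and 3. PBS 2 almost reached MBELN 1, and MBELN 2 was far below the rest. The difference was -0.14 ± 1.91 with all arrays (limma adjusted p = 0.982) and 1.93 ± 0.89 without MBELN 2 (adjusted p = 0.227). Without both PBS 2 and MBELN 2 it was 2.81 (limma adjusted p = 0.000731), a fit in which 15.1% of all probe sets were called higher.

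The proximal membrane arm joins the Q module to the membrane. The median over its 9 genes was 12.51, 13.01 and 11.97 in PBS and 17.21, 11.75 and 17.55 in MBELN 1, 2 and 3. Ndufa8, a protein held together by disulphide bonds in the intermembrane space, read 12.51, 10.97 and 11.97 in PBS and 18.78, 12.24 and 18.59 in MBELN 1, 2 and 3. Ndufa8 was higher by 6.87 ± 0.50 without MBELN 2 (limma adjusted p = 0.000940) and by 4.72 ± 1.86 with it (adjusted p = 0.272). Its promoter and that of Ndufa11 are among the 4 printed above. Ndufa11, a subunit within the membrane, read 12.10, 13.03 and 11.83 in PBS and 18.74, 11.57 and 18.78 in MBELN 1, 2 and 3. Ndufa10, an accessory subunit on the matrix side, read 10.81, 9.97 and 11.37 in PBS and 16.29, 11.55 and 16.74 in MBELN 1, 2 and 3. Its groups did not overlap, by the small step from PBS 3 to MBELN 2, and its difference was 4.14 ± 1.46 (limma adjusted p = 0.221) and, without MBELN 2, 5.80 ± 0.48 (adjusted p = 0.00136). Ndufs5, a further subunit of the intermembrane space, had the smallest adjusted p of the subunits with all arrays. It read 10.15, 9.90 and 9.63 in PBS and 15.12, 10.79 and 15.12 in MBELN 1, 2 and 3, a difference of 3.79 ± 1.24 (limma adjusted p = 0.189) and 5.23 ± 0.29 without MBELN 2 (adjusted p = 0.000429). MBELN 2 was 0.90 above the PBS mean for Ndufs5, its highest position among the subunits.

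Ndufa3 is a small membrane subunit. It read 15.28, 15.56 and 15.28 in PBS and 19.90, 15.59 and 19.69 in MBELN 1, 2 and 3. MBELN 1 was at the highest value of its array, so its range over the arrays is a lower bound and the difference of 4.42 ± 0.28 without MBELN 2 (limma adjusted p = 0.000598) may be understated. With MBELN 2 it was 3.02 ± 1.21 (limma adjusted p = 0.277). Ndufa13, also known as a cell death regulator, read 12.69, 13.01 and 12.87 in PBS and 17.21, 11.75 and 17.35 in MBELN 1, 2 and 3. Ndufc2, a small subunit of the membrane arm, read 12.87, 15.01 and 13.29 in PBS and 17.14, 12.11 and 17.55 in MBELN 1, 2 and 3. PBS 2 was the highest PBS array for Ndufc2 by over 1 log2 unit. Its difference was 1.88 ± 1.59 with all arrays (limma adjusted p = 0.5996) and 3.62 ± 0.69 without MBELN 2 (adjusted p = 0.0215).

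**Figure D2:**
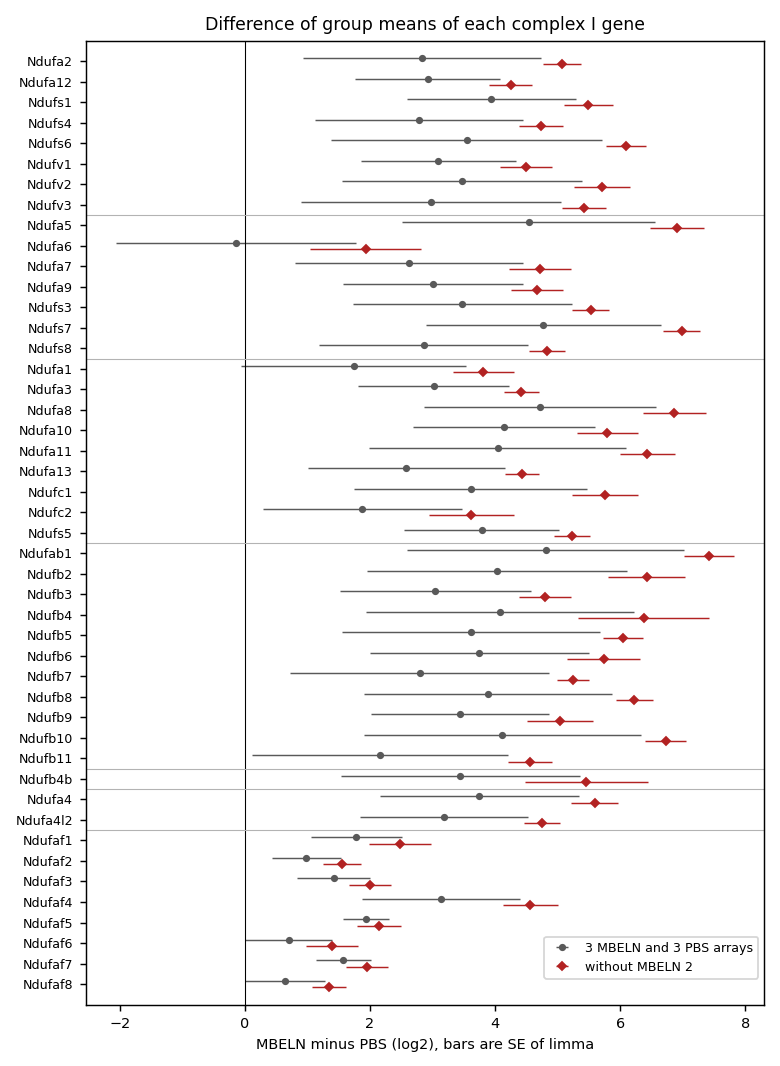
Difference of group means, MBELN minus PBS (log2), for each of the 46 genes, with all 6 arrays (grey circles) and without MBELN 2 (red diamonds). Bars are the standard error from limma. The red bars are shorter and all red points lie above 0, between 1.34 for Ndufaf8 and 7.41 for Ndufab1, while the grey point of Ndufa6 is at -0.14.

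The distal membrane arm lies at the far end of the proton-pumping part, and 11 of its 12 listed genes were measured. Their median was 9.07, 9.90 and 9.25 in PBS and 14.56, 7.63 and 14.74 in MBELN 1, 2 and 3. Ndufab1, the acyl carrier protein of mitochondria, had the largest measured difference of any member. It read 12.19, 12.17 and 13.14 in PBS and 19.90, 12.10 and 19.93 in MBELN 1, 2 and 3, at the array's highest value in MBELN 1 and MBELN 3. The difference of Ndufab1 was 7.41 ± 0.40, or 170.5-fold, without MBELN 2 (limma adjusted p = 0.000379) and 4.81 ± 2.22 with it (adjusted p = 0.340), and both may be understated. Ndufb10, which lies in the intermembrane space, read 7.61, 7.16 and 7.13 in PBS and 13.77, 6.20 and 14.28 in MBELN 1, 2 and 3. MBELN 2 was its lowest array, and its difference was 6.73 ± 0.33 without MBELN 2 (limma adjusted p = 0.000301) and 4.12 ± 2.21 with it (adjusted p = 0.414). Ndufb8, a subunit of this arm often used as a protein marker of the assembled complex, read 8.16, 8.69 and 8.42 in PBS and 14.56, 7.63 and 14.74 in MBELN 1, 2 and 3. Ndufb5 had the smallest spread over the PBS arrays of all members, with 11.13, 11.10 and 11.07, and read 16.80, 9.87 and 17.48 in MBELN 1, 2 and 3. Ndufb9 read 14.73, 15.76 and 14.14 in PBS and 19.90, 15.11 and 19.93 in MBELN 1, 2 and 3, and again reached the highest value of MBELN 1 and MBELN 3. Without MBELN 2 all 11 genes of this arm were called higher by limma, against 9.51% of all probe sets, with a median difference of 6.04. That median was 5.25 in the N module, 4.83 in the Q module and 5.23 in the proximal arm, and no test was made between the modules.

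Ndufb4 and its near-identical copy Ndufb4b were the members with PBS 2 farthest from the other PBS arrays. Ndufb4 read 10.78, 14.29 and 11.64 in PBS and 18.46, 11.73 and 18.77 in MBELN 1, 2 and 3. Ndufb4b read 13.43, 16.33 and 13.27 in PBS and 19.69, 13.75 and 19.92 in MBELN 1, 2 and 3. Whether the probes of each tell the 2 genes apart is not given in the sources used here, so their values are uncertain as separate measurements. With all arrays limma gave Ndufb4 a difference of 4.08 ± 2.14 (adjusted p = 0.401) and Ndufb4b one of 3.44 ± 1.91 (adjusted p = 0.430). Without MBELN 2 these were 6.38 ± 1.05 (limma adjusted p = 0.0133) and 5.46 ± 0.99 (adjusted p = 0.0187).

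Ndufa4, first described as a complex I subunit and now assigned to cytochrome c oxidase, also had MBELN 1 and MBELN 3 above every PBS array. It read 14.38, 13.79 and 14.80 in PBS and 19.90, 14.39 and 19.93 in MBELN 1, 2 and 3. Ndufa4 was at the highest value of MBELN 1 and MBELN 3, and its difference was 3.75 ± 1.59 with all arrays (limma adjusted p = 0.300) and 5.59 ± 0.38 without MBELN 2 (adjusted p = 0.000766). Its paralog Ndufa4l2, known as a gene induced by low oxygen, was the one member not above the dim level in all 6 arrays. It read 3.24, 2.85 and 2.81 in PBS and 7.81, 3.02 and 7.62 in MBELN 1, 2 and 3, and only MBELN 1 and MBELN 3 were above the dim level. Set against the dim level of the PBS arrays, Ndufa4l2 was at least 11.7-fold higher in MBELN 1 and MBELN 3. The fitted difference was 4.75 ± 0.29 without MBELN 2 (limma adjusted p = 0.000559) and 3.19 ± 1.34 with it (adjusted p = 0.299). Of 10 other genes linked to low oxygen, 0 rose and 1 fell with all arrays, and 2 rose and 1 fell without MBELN 2. Over all probe sets, 1.42% rose and 3.76% fell with all arrays, and 9.51% and 7.32% without MBELN 2. The 2 that rose were Bnip3, by 5.59 (limma adjusted p = 0.0288), and Pdk1, by 2.785 (adjusted p = 0.0208). The gene that fell was Car9, a carbonic anhydrase of the cell surface, with 6.68, 6.71 and 7.59 in PBS and 4.17, 3.44 and 3.44 in MBELN 1, 2 and 3 (limma adjusted p = 0.0113, and 0.0070 without MBELN 2). Car9 was below the dim level in all 3 MBELN arrays, so it was at least 6.43-fold lower there.

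The 8 Ndufaf genes help build the complex and are not part of the finished enzyme. Their median was 6.54, 6.27 and 6.60 in PBS and 8.27, 6.54 and 8.24 in MBELN 1, 2 and 3. Relative to the PBS mean, the median difference was 1.92 in MBELN 1 and 2.02 in MBELN 3, against 5.29 and 5.54 for the subunits. No test was made between these lists, and in MBELN 2 the medians were 0.27 for the assembly factors and -0.66 for the subunits. With all 6 arrays, limma called 1 of 8 assembly factors higher and 0 lower, and 3 had an unadjusted p under 0.05. Over all probe sets these shares were 1.42%, 3.76% and 17.8%.

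Ndufaf5, which hydroxylates an arginine of Ndufs7, was the member that limma called with all 6 arrays. It read 5.68, 5.39 and 4.98 in PBS and 7.23, 6.85 and 7.76 in MBELN 1, 2 and 3, so that all 3 MBELN arrays lay above all PBS arrays. Ndufaf5 rose by 1.93 ± 0.36 (limma adjusted p = 0.0446). The call is close to the threshold: the adjusted p lay between 0.00554 and 0.181 over 16 alternatives, of which 4 kept it. Leaving out PBS 1, PBS 2, PBS 3, MBELN 1 or MBELN 3 ended it, with limma adjusted p of 0.135, 0.0845, 0.181, 0.146 and 0.139, while without MBELN 2 it was 0.0134. Quantile normalisation gave 0.0561 and median centring 0.0520 as adjusted p in limma. Ndufaf8, which binds and stabilises Ndufaf5, read 6.76, 6.81 and 6.98 in PBS and 8.26, 6.09 and 8.13 in MBELN 1, 2 and 3. Here MBELN 2 was the lowest array, and the difference was 0.64 with all arrays (limma adjusted p = 0.648) and 1.34 without MBELN 2 (adjusted p = 0.0243).

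Ndufaf7, an arginine methyltransferase of mitochondria, was the other assembly factor whose groups did not overlap. It read 7.71, 7.62 and 7.34 in PBS and 9.16, 8.37 and 9.85 in MBELN 1, 2 and 3, with a difference of 1.57 ± 0.44 (limma adjusted p = 0.131) and, without MBELN 2, of 1.95 (adjusted p = 0.0155). Ndufaf4, an early factor of the Q module that works with Ndufaf3, had the largest difference of the assembly factors. Ndufaf4 read 7.98, 7.88 and 8.65 in PBS and 12.24, 8.46 and 13.23 in MBELN 1, 2 and 3. It rose without MBELN 2 by 4.56 ± 0.44 (limma adjusted p = 0.00218), against 3.14 ± 1.26 with it (adjusted p = 0.280). Ndufaf3 read 8.01, 7.40 and 7.60 in PBS and 9.92, 7.92 and 9.42 in MBELN 1, 2 and 3, a difference of 1.42 (limma adjusted p = 0.285) and, without MBELN 2, of 2.0 (adjusted p = 0.0147). For both of these partners MBELN 2 was within the PBS range.

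Ndufaf1, a factor of the membrane arm that works with Acad9 and Ecsit, read 6.33, 4.95 and 6.22 in PBS and 8.28, 6.22 and 8.34 in MBELN 1, 2 and 3. PBS 2 was the lowest array for Ndufaf1, and the difference was 1.78 with all arrays (limma adjusted p = 0.289) and 2.48 without MBELN 2 (adjusted p = 0.0251). Ndufaf2, the paralog of Ndufa12 that acts when the N module is added, read 5.76, 5.72 and 5.91 in PBS and 7.64, 5.64 and 7.05 in MBELN 1, 2 and 3. Its difference was 0.98 with all arrays (limma adjusted p = 0.437) and 1.55 without MBELN 2 (adjusted p = 0.0246). Ndufaf6, a factor of early assembly, read 4.61, 4.86 and 4.98 in PBS and 6.78, 4.11 and 5.65 in MBELN 1, 2 and 3. Its values in MBELN 1 and MBELN 3 lay 1.13 apart, the widest gap of any member, and it was not called with all arrays (difference 0.70, limma adjusted p = 0.650) or without MBELN 2 (1.40, adjusted p = 0.0839).

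**Figure D3:**
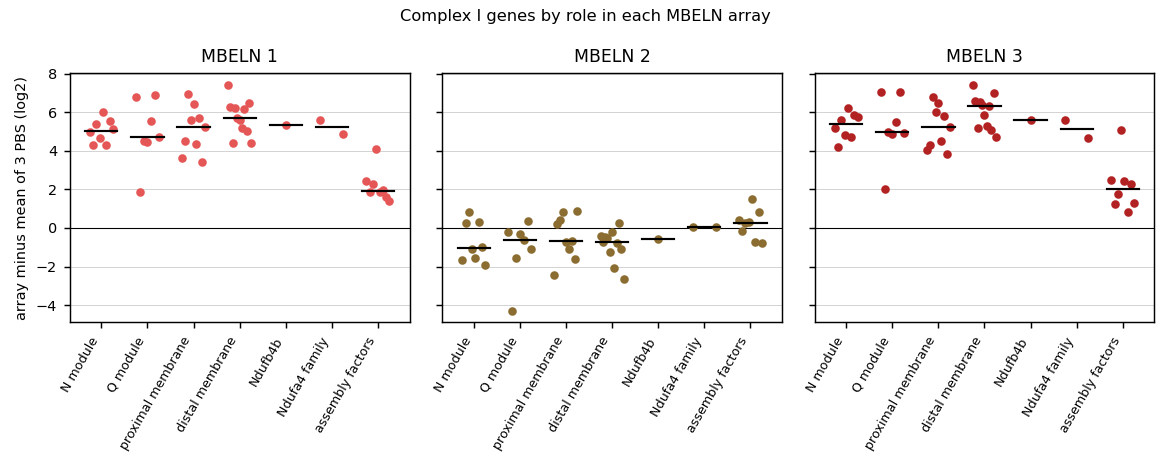
Each point is 1 gene, placed by its value in MBELN 1, 2 or 3 minus its mean over the 3 PBS arrays (log2), and bars mark the median of each role. Subunit roles have medians between 4.72 and 6.32 in MBELN 1 and MBELN 3 and between -1.05 and -0.62 in MBELN 2 for the N, Q, proximal and distal groups, and the assembly factors lie lower in MBELN 1 and MBELN 3.

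The 2 arrays that carried heart transcripts gave close values. Among the subunits, MBELN 3 minus MBELN 1 ran from -0.21 for Ndufa3 to 0.76 for Ndufb3, and 45 of 46 members differed by under 1 log2 unit. MBELN 2 was below all PBS arrays in 20 subunits, within their range in 13 and above them in 5, where 36.2% of all probe sets were below and 33.3% above. Its subunit values ran from -4.29 (Ndufa6) to 0.90 (Ndufs5) relative to the PBS mean. The groups did not overlap in 7 members, all with MBELN higher: Ndufa3, Ndufa10, Ndufs1, Ndufs5, Ndufs7, Ndufaf5 and Ndufaf7. That was true of 11.9% of all probe sets in this direction and 13.4% in the other, where the members numbered 0. The 7 of 46 members are near the first share, so nothing is read from their number. In the fit limited to PBS 1, PBS 3 and MBELN 2, 6 of 38 subunits were called lower, a share near the 15.8% of all probe sets, so nothing is read from it about these genes. They were Ndufa1, Ndufa2, Ndufa6, Ndufb7, Ndufb11 and Ndufv3. Ndufb7, a subunit on the intermembrane side, read 9.35, 9.29 and 9.25 in PBS and 14.48, 7.20 and 14.60 in MBELN 1, 2 and 3. Ndufb11 read 9.07, 9.90 and 9.70 in PBS and 13.98, 6.91 and 14.25 in MBELN 1, 2 and 3. In both genes MBELN 2 was the lowest array, and it is 1 array with no replicate of its own kind.

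Among the PBS arrays, the range of a member was 0.06 (Ndufb5) to 3.51 (Ndufb4). It was under 1 log2 unit in 26 of 46 members and at least 2 in 4, which were Ndufb4, Ndufb4b, Ndufa6 and Ndufc2. PBS 2 was the highest in each of these 4. Over the 38 subunits PBS 2 was the highest PBS array in 20 and the lowest in 9. In this array the Paneth cell genes were near the dim level and colon epithelial genes were high, as given above, and their part in these values was not tested.

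In complexes II to V too, the list medians of MBELN 1 and MBELN 3 were above those of the other 4 arrays. Complex III, which passes electrons from ubiquinol to cytochrome c, had a median over 15 genes of 9.21, 9.37 and 8.57 in PBS and 14.21, 8.85 and 14.65 in MBELN 1, 2 and 3. With all arrays limma called 0 genes of complexes II, III, IV and V in either direction, where 1, 4, 2 and 0 had an unadjusted p under 0.05, against 17.8% of all probe sets. Without MBELN 2 it called 7 of 8, 12 of 15, 11 of 16 and 14 of 16 higher, in the same order, and 2 of complex IV lower. Over all probe sets, 9.51% were then called higher and 7.32% lower. The median differences without MBELN 2 were 2.98, 4.36, 3.71 and 3.50, beside 5.44 for the complex I subunits. Differences of complexes IV and V may be understated near the top of the scale, with list medians of 19.26 and 19.21 for complex IV and 19.33 and 19.62 for complex V in MBELN 1 and MBELN 3. Uqcc2, an assembly factor of complex III, read 7.27, 9.37 and 8.21 in PBS and 14.23, 10.06 and 14.78 in MBELN 1, 2 and 3. Cox6a2, the cytochrome c oxidase isoform of heart and skeletal muscle, read 3.25, 3.0 and 3.44 in PBS and 19.67, 6.05 and 19.75 in MBELN 1, 2 and 3. It was below the dim level in every PBS array. Complex I genes encoded by mitochondrial DNA are not analysed here.

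Further complex I assembly factors carry other names. Of 11 measured, limma called 0 with all arrays, with 2 at an unadjusted p under 0.05 (17.8% of all probe sets). Without MBELN 2 it called 4 higher, against 9.51% of all probe sets, at a median difference of 1.52. Ecsit, the partner of Ndufaf1, read 5.60, 5.06 and 4.20 in PBS and 9.10, 6.07 and 9.27 in MBELN 1, 2 and 3. Dmac1, a factor of the distal membrane arm, read 9.96, 10.12 and 9.91 in PBS and 13.70, 10.71 and 13.66 in MBELN 1, 2 and 3. In both genes all MBELN arrays lay above all PBS arrays. Of 13 measured regulators of mitochondrial genes, 1 rose with all arrays and 3 without MBELN 2, beside 1.42% and 9.51% of all probe sets. Their median difference was 0.77 without MBELN 2. The one that rose with all arrays was Esrrg, an oestrogen-related receptor of oxidative tissues. It read 3.53, 4.94 and 3.85 in PBS and 6.71, 6.50 and 7.28 in MBELN 1, 2 and 3 (difference 2.73, limma adjusted p = 0.0342). In PBS 1 and PBS 3 it was below the dim level, so the size of its difference is uncertain. All 3 MBELN arrays were above all PBS arrays for Esrrg, with MBELN 2 the lowest of the 3. Without MBELN 2 the difference was 2.89 (limma adjusted p = 0.01645).

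**Figure D4:**
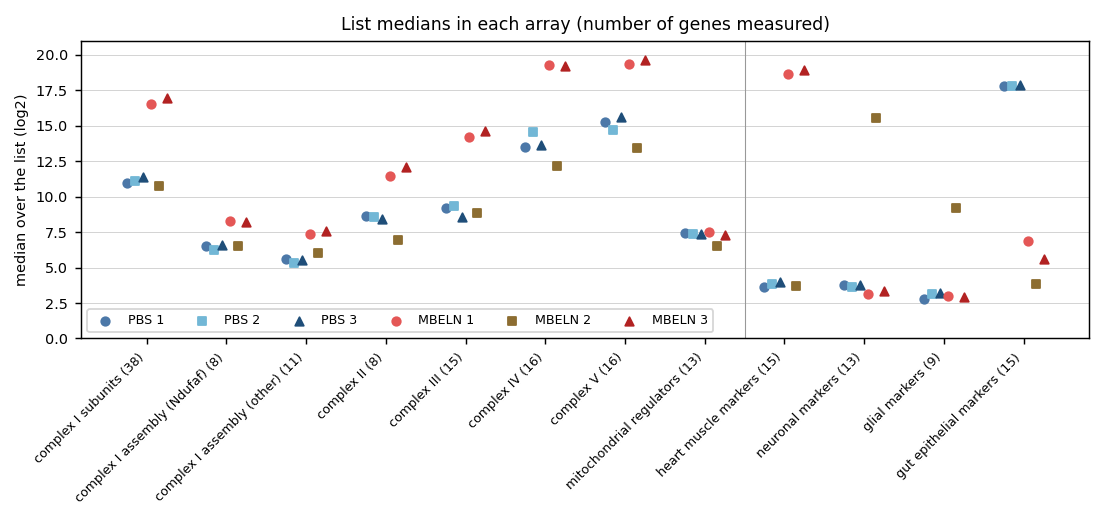
Median value (log2) of each gene list in each array, with the number of measured genes in brackets, and tissue marker lists to the right of the line. Complex I subunits, assembly factors and complexes II to V are high in MBELN 1 and MBELN 3, where heart muscle genes have medians of 18.63 and 18.92, while MBELN 2 is high in neuronal genes (15.56).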

How the data were processed

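Trizol was used to extract RNA, of which 90 ng was labelled for single-colour arrays, per the labels' protocols, which also name an Ion AmpliSeq assay. The submitters' processing notes name Transcriptome Analysis Console 4.0. How probe sets were summarized and normalized, and on which build, is not stated in those sources. Each probe set has 1 value per array as deposited by the authors, taken to be log2 from the range of the values. That scale is inferred, not stated. Differences that involve values at an array's highest value, between 19.90 and 19.93, may be understated.

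Of 28846 probe sets, 6640 controls were left out. Of the other 22206, 19572 had 1 gene symbol, 0 several and 2634 none. For genes with several probe sets, the one with the highest mean was used, and each member had 1. Groups came from the titles and labels. Values were compared with limma 3.58.1 (lmFit, eBayes) in R 4.3.3, without covariates. Tests were two-sided, and p-values were adjusted by Benjamini-Hochberg over the 22206 probe sets, with 0.05 as the threshold. Residual and prior degrees of freedom were 4 and 1.66. Errors of differences are limma's standard errors, and 6 arrays limit the precision. The procedure was tested on simulated data. Lists are described by counts and medians, without a list test.

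Members and lists were chosen with earlier results of these data known. Every member is accounted for. Array values are given for members past the threshold, the largest differences, core subunits, the Ndufa4 family, the smallest ranges and all Ndufaf genes. In other lists, genes past the threshold or with the smallest p were eligible to be named. Further members and marker genes were picked after their values were seen. The alternatives covered array weights, a trended robust variance model, median centring or quantile normalization, removal of dim probe sets, blocks for replicate number or hybridisation control level, leaving out arrays, other thresholds and the mean of a gene's probe sets. Fits within each hybridisation control level were added after seeing the data. Replicate numbers were not used to pair the samples in the main fit. Deviations of same-numbered arrays correlated at -0.03 to -0.07. Arrays of a group differed in their tissue markers, so these values cannot settle whether samples were paired.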

Additional observations from a re-analysis of the deposited data

How the results depend on the processing

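All 46 members kept the sign of their difference under quantile normalization, median centring, a trended robust variance model, the replicate block and the hybridisation control level as a block, as did the 45 left by the filter on dim probe sets. Outside the fits within a hybridisation control level, Ndufa6 was the one member that reversed. Its difference went from -0.14 to 2.23 with array weights and 2.81 without PBS 2 and MBELN 2. When 1 array was left out, it ran from -1.21 without MBELN 3 to 1.93 without MBELN 2 (0.73 without PBS 2). The number of subunits called higher was 0 with all arrays, 37 with array weights, 38 without PBS 2 and MBELN 2 and 37 within the higher hybridisation control level. Leaving out 1 array at a time gave 0 to 37, and the 37 came from leaving out MBELN 2. Subunits called lower numbered 6 within the lower level. For assembly factors the count of 1 called higher became 7 with array weights, 7 without PBS 2 and MBELN 2, 5 within the higher level and 0 within the lower level. It was 0 with quantile normalization, median centring, the filter, the trended robust variance model, the replicate block, the hybridisation control block and an adjusted p of 0.01, and 0 to 7 when 1 array was left out. For the other lists, each of 8 to 16 measured genes, 1 gene called higher became 58 with array weights and 62 without PBS 2 and MBELN 2. Over all probe sets 12.9% and 15.1% were called higher in these 2 fits. The count became 3 with the hybridisation control block, where 354 of the 19505 genes were called higher. It was 0 with the trended robust variance model, the replicate block or an adjusted p of 0.01, and 0 to 53 when 1 array was left out. Their 1 gene called lower became 3 with array weights, 3 without PBS 2 and MBELN 2, 7 within the higher level, 30 within the lower level, 2 with the hybridisation control block and 0 with the replicate block or an adjusted p of 0.01, and 0 to 3 when 1 array was left out. Within the lower level the median difference of the subunits was -0.60 and that of the assembly factors 0.033, and 15 of 46 members had the higher value in MBELN 2 there, so most members changed sign. The cause of these shifts was not tested. With the replicate number as a block, 0 of 46 members were called, where 57 of the 19505 genes were called higher and 363 lower. Ndufaf5 then had a limma adjusted p of 0.165. Nothing in the titles says that array numbers pair the samples, so this block is not known to stand for a pairing. With 3 arrays per group, 1 MBELN array decides the subunit calls, and values at the top of each array set a limit on the size of the differences.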
